A study of Mus musculus with 12 samples.

Results

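ECs sorted from lungs 1 week after mice received MDA231-LM2 breast cancer cells were compared with ECs from healthy lungs, on 6 of the 12 arrays of the series. The members were the 3 arrays labelled week 1 and the 3 labelled healthy (control), taken by their labels alone. The remaining 6 arrays are 3 each from weeks 2 and 3 and were used only to set week 1 beside later stages of colonization. All mice were NSG females, a strain that lacks mature T, B and NK lymphocytes and that, through its NOD background, lacks functional complement C5. Week 1 mice were 6 to 8 weeks old when they received the cells through the tail vein, and the controls were age-matched mice without cancer cells. Mice of weeks 2 and 3 received the cells at the same age of 6 to 8 weeks, so they were older at collection. MDA231-LM2 is a lung-metastatic derivative of the human line MDA-MB-231 and carried a reporter with GFP, luciferase and thymidine kinase. Cells with CD31 were sorted from whole digested lungs after those with GFP, EpCAM, CD45, CD11b or either PDGF receptor (CD140a, CD140b) had been gated out, so that ECs near and far from cancer cells were measured together. The labels call the 3 samples of a group biological replicates and do not say whether mice were pooled, so p-values measure the spread between these samples.

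The lung holds a dense capillary bed of general capillary cells and aerocytes, and cancer cells that arrive by the blood first meet these ECs. Type I interferon, sensed through its receptor IFNAR, induces antiviral genes, many of which hold an interferon-stimulated response element in their promoters. ECs also make vasoactive peptides such as adrenomedullin, hold platelets at sites of injury and share their basement membrane with pericytes.

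The question was which transcripts of the lung endothelium differ from health at the earliest stage sampled. At week 1, 2 genes rose and 7 fell. The genes that rose were Oas1a and Ifi27l2a, which are both induced by interferon. Gria1, Tktl1, Hc, Cebpa, Ppbp, Adm and G0s2 fell. These counts are of 18193 genes with adjusted p below 0.05 in limma, with 1 log2 signal per gene and array, and 0.011% of genes rose and 0.0385% fell. The adjusted p of the 16 probe sets that passed lay between 0.0394 and 0.0431. With all 4 groups in one fit, which takes the spread of a gene from all 12 arrays, 33 genes passed as higher (0.181%) and 136 as lower (0.748%), and all 9 genes were among them. Without any 1 of the control arrays, or of week 1 replicates 1 and 2, 0 genes passed. Without week 1 replicate 3, 6 genes passed as lower, of which only Hc was among the 9, with Aldh1a1, Dpep1, Hsd11b1, Mme and Slc34a2 as the others.

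The promoters of 3 interferon genes are printed because the interferon-stimulated genes were mostly above control at week 1 and because the response element can be read in them. Each is the run of 250 bases before the annotated start, 5′ to 3′ on the strand of the gene, from RefSeq on build GRCm38.p6. Capitals mark a core of the element, GAAA followed by any 2 bases and GAAA again, on either strand (TTTC, any 2 bases and TTTC where the other strand holds it).
Oas1a (chr5:120907526-120907775, minus strand): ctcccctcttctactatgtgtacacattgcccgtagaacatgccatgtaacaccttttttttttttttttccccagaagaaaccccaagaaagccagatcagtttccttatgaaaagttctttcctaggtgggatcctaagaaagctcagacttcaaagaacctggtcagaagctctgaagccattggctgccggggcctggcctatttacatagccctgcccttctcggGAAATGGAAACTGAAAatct
Ifit1 (chr19:34640639-34640888, plus strand): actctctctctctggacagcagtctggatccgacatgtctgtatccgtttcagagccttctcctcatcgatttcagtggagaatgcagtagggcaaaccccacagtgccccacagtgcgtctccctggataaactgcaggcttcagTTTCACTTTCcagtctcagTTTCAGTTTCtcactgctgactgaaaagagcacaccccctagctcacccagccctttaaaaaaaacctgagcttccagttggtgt
Rsad2 (chr12:26456453-26456702, minus strand): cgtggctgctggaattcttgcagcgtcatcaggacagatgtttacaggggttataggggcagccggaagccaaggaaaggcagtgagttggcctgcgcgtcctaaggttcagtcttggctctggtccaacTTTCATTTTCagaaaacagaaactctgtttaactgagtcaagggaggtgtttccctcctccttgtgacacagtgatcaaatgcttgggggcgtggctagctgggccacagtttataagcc
Oas1a held 2 overlapping matches that begin 20 and 14 bases before the start. Ifit1 held 2, beginning 104 and 85 bases before it, and Rsad2 held 1, beginning 120 bases before it. The letters were found in 2.98% of 32851 promoters of this length. Of 31 interferon-stimulated genes measured, 22 had a promoter in the table (25 promoters in all), and 9 of the 25 (36.0%) held the motif, 1 each of Bst2, Cxcl10, Ifit1, Ifit3, Oas1a, Oas3, Rsad2, Stat2 and Trim30a. It was in 0 of 6 promoters of genes that fell, which are too few to set against 2.98% of all promoters. Ifi27l2a and Gria1 had no promoter among those searched. A match describes the letters only.

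Oas1a encodes an enzyme that makes oligoadenylates when it meets double-stranded RNA. Its log2 signal was 9.29, 9.07 and 9.23 in the control arrays and 10.53, 11.00 and 10.75 at week 1. It rose 2.95-fold (log2 fold change, written log2FC below, of 1.56 with a standard error, SE, of 0.15, adjusted p = 0.0394). Ifi27l2a encodes a small interferon-induced membrane protein and had signals of 8.55, 8.13 and 8.36 in control against 9.74, 10.06 and 10 at week 1. It rose 3.01-fold (log2FC of 1.59, SE 0.16, adjusted p = 0.0394). In both genes every week 1 array lay above every control array.

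The interferon-stimulated genes as a group were higher at week 1. Of 31 measured, 2 rose, 29 did not pass and 0 fell, with a median log2FC of 0.70 beside 0.05 over all genes. With all 4 groups in one fit, 14 of the 31 passed as higher and 0 as lower, where 0.181% and 0.748% of all genes did. At an unadjusted p below 0.05, 23 were higher and 0 lower, where 3.73% of all genes were higher and 5.24% lower. In 24 of 31 every week 1 array was above every control array, which held for 9.21% of all genes, while in 0 every array was below, which held for 6.93%. The mean log2 signal over the list was 9.97, 9.91 and 9.95 in control and 10.47, 10.81 and 10.80 at week 1. Over the same arrays the pan-leukocyte and macrophage lists, cell types that also carry these transcripts, had medians of -0.40 and -0.33, which ranged from -0.61 to -0.24 and from -0.40 to -0.18 as each array was left out. The interferon median ranged from 0.61 to 0.82 in the same way. The part of leukocytes in the interferon values was not tested.

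**Figure D1:**
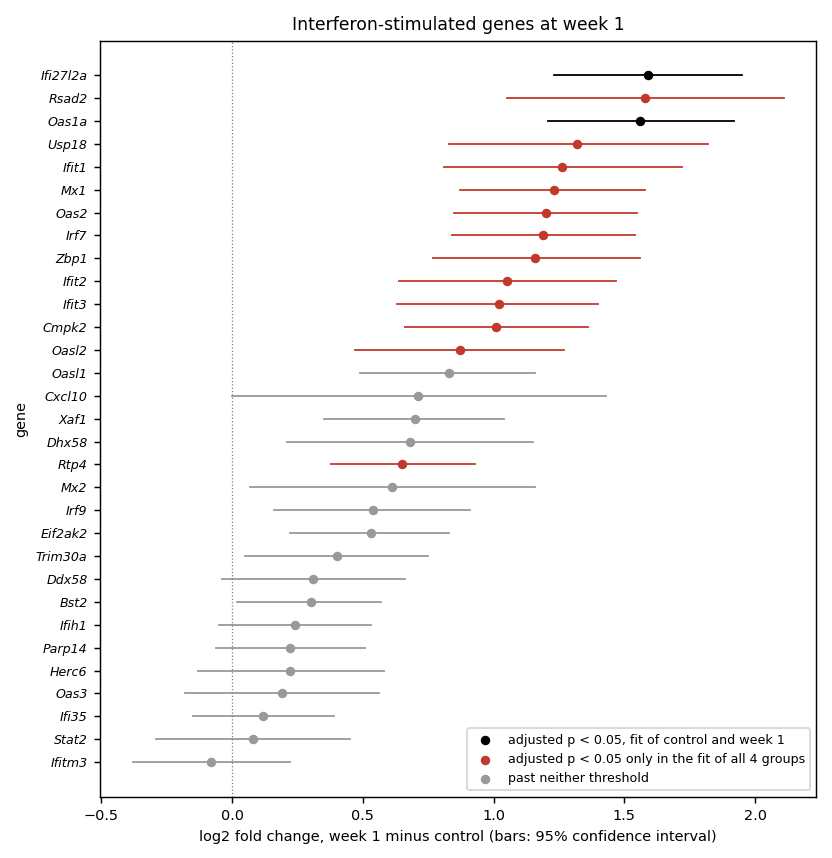
Log2 fold change (week 1 minus control, n = 3 arrays per group) of the 31 measured interferon-stimulated genes, with 95% confidence intervals. Black marks Ifi27l2a and Oas1a, which passed in the fit of control and week 1, red the genes that passed only in the fit of all 4 groups, and grey the rest. Of the 31 genes, 30 lie above 0, and Ifitm3 lies at -0.08.

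Several antiviral effectors lay close to the threshold. Rsad2, which encodes viperin, had signals of 9.51, 9.75 and 9.18 in control and 10.61, 11.30 and 11.26 at week 1 (log2FC of 1.58, SE 0.23, adjusted p = 0.0604). Mx1, a dynamin-like antiviral GTPase, had 7.16, 7.26 and 7.30 against 8.22, 8.72 and 8.46 (1.23, SE 0.15, adjusted p = 0.0529). Irf7, the transcription factor that amplifies type I interferon, had 9.81, 9.64 and 9.97 against 10.86, 11.21 and 10.92 (1.19, SE 0.15, adjusted p = 0.0529). In these 3 genes the arrays of the groups did not overlap. Usp18, which removes ISG15 from proteins and dampens receptor signaling, had a log2FC of 1.32 (adjusted p = 0.0718). Oas2 and Ifit1 had log2FC values of 1.20 and 1.26, and Slfn2, a Schlafen gene outside the list, one of 1.35 (adjusted p = 0.0529). At the lower end of the list, Ifitm3 had a log2FC of -0.08 and Stat2 one of 0.08.

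The receptors and signaling genes of the interferon pathway had values near 0. Of 16 measured, 0 rose and 0 fell in limma, 0 passed at an unadjusted p below 0.05 and 0 in the fit of all 4 groups. Their median log2 fold change was 0.03. Ifnb1 had a log2FC of 0.22 (SE 0.13, adjusted p = 0.678) and Ifnar1 one of 0.12 (SE 0.12, adjusted p = 0.803). Of 27 genes for presenting antigen or answering interferon gamma, 0 rose and 0 fell in limma, with 9 higher and 4 lower at an unadjusted p below 0.05 and a median of 0.13. At that p, 3.73% of all genes were higher and 5.24% lower. With 4 groups in one fit, 2 passed as higher and 1 as lower, where 0.181% and 0.748% of all genes did. Nlrc5, the transactivator of MHC class I genes, had a log2FC of 0.91 (adjusted p = 0.129), while Cd74, the invariant chain of MHC class II, had one of -0.99 (adjusted p = 0.0718). Of 25 inflammatory genes downstream of TNF and NF-kB, 0 passed. At an unadjusted p below 0.05, 0 were higher and 7 lower, beside the same 3.73% and 5.24% of all genes. Their median of -0.22 was -0.13 without control replicate 1. Macrophage and fibroblast markers were also lower in these arrays (medians of -0.33 and -0.64), and their part in this was not tested. The chemokine gene Cxcl2 had signals of 8.53, 7.31 and 7.39 in control and 6.59, 6.51 and 6.85 at week 1 (log2FC of -1.09, adjusted p = 0.305), and the cytokine gene Il6 a log2FC of -1.01 (adjusted p = 0.199).

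The genes that fell were of several kinds. Gria1, a subunit of AMPA glutamate receptors, had signals of 9.63, 9.89 and 9.49 in control and 8.10, 7.72 and 7.49 at week 1. It fell 3.73-fold (log2FC of -1.90, SE 0.19, adjusted p = 0.0394). Its other probe set averaged 7.99 in control and 7.15 at week 1 and did not pass. Of the 4 receptor subunits measured, Gria1 fell and 3 did not pass, and Gria3 had a log2FC of -1.18 (adjusted p = 0.194).

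Tktl1, a transketolase-like gene of the pentose phosphate pathway, had signals of 9.16, 8.86 and 9.32 in control and 6.99, 7.57 and 7.17 at week 1. It fell 3.65-fold (log2FC of -1.87, SE 0.19, adjusted p = 0.0394). Its other 2 probe sets had means of 8.65 and 8.31 in control and 6.44 and 6.70 at week 1. The other 6 genes of the pathway did not pass, and the list's median was 0.00.

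Hc, which encodes complement C5, had the smallest control SD of the 9 genes, with values of 8.74, 8.70 and 8.75, and had 6.93, 7.22 and 6.97 at week 1. It fell 3.23-fold (log2FC of -1.69, SE 0.13, adjusted p = 0.0394). Of 17 complement components and regulators, Hc fell, 0 rose and 16 did not pass. With 4 groups in one fit 3 passed as lower, beside 0.748% of all genes. At an unadjusted p below 0.05, 5 were lower and 2 higher, where 5.24% and 3.73% of all genes were. The median was -0.11 and ranged from -0.25 (without control replicate 3) to -0.02 (without control replicate 1). C1s1, a protease of the classical pathway, had a log2FC of -1.13 (adjusted p = 0.0875), and Serping1, the inhibitor of C1, one of -0.80 (adjusted p = 0.0943).

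Cebpa, a transcription factor of myeloid, fat and alveolar epithelial differentiation, had signals of 8.98, 9.48 and 9.22 in control and 7.53, 7.69 and 7.65 at week 1. It fell 3.04-fold (log2FC of -1.60, SE 0.15, adjusted p = 0.0394). All 5 measured genes of the C/EBP family had a lower mean at week 1, with a median of -0.38, and Cebpb had a log2FC of -0.70 (adjusted p = 0.159). G0s2 encodes an inhibitor of the triglyceride lipase ATGL. Its signals were 10.19, 10.30 and 10.29 in control and 9.08, 8.81 and 9.06 at week 1, a 2.43-fold fall (log2FC of -1.28, SE 0.13, adjusted p = 0.0394). Of 19 genes of fatty acid uptake and lipolysis, the other 18 did not pass, and the median was 0.02. Cebpa and G0s2 are also 2 of 9 adipocyte markers measured, and the other 7, Adipoq among them with a log2FC of 0.13, did not pass.

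Adm encodes adrenomedullin, a vasodilator peptide that tightens the endothelial barrier. It had signals of 10.24, 10.36 and 10.03 in control and 8.75, 8.92 and 8.94 at week 1, and fell 2.53-fold (log2FC of -1.34, SE 0.13, adjusted p = 0.0394). Its other probe set passed too, with a log2FC of -1.19. The receptor genes did not pass. Calcrl had a log2FC of -0.04 (SE 0.11), Ramp2 one of 0.02 (SE 0.12) and Ramp3 one of 0.47 (SE 0.17, adjusted p = 0.432). Adm is also a target of hypoxia-inducible factors, and the other 14 of 15 genes of hypoxia and glycolysis did not pass, with a list median of -0.08.

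**Figure D2:**
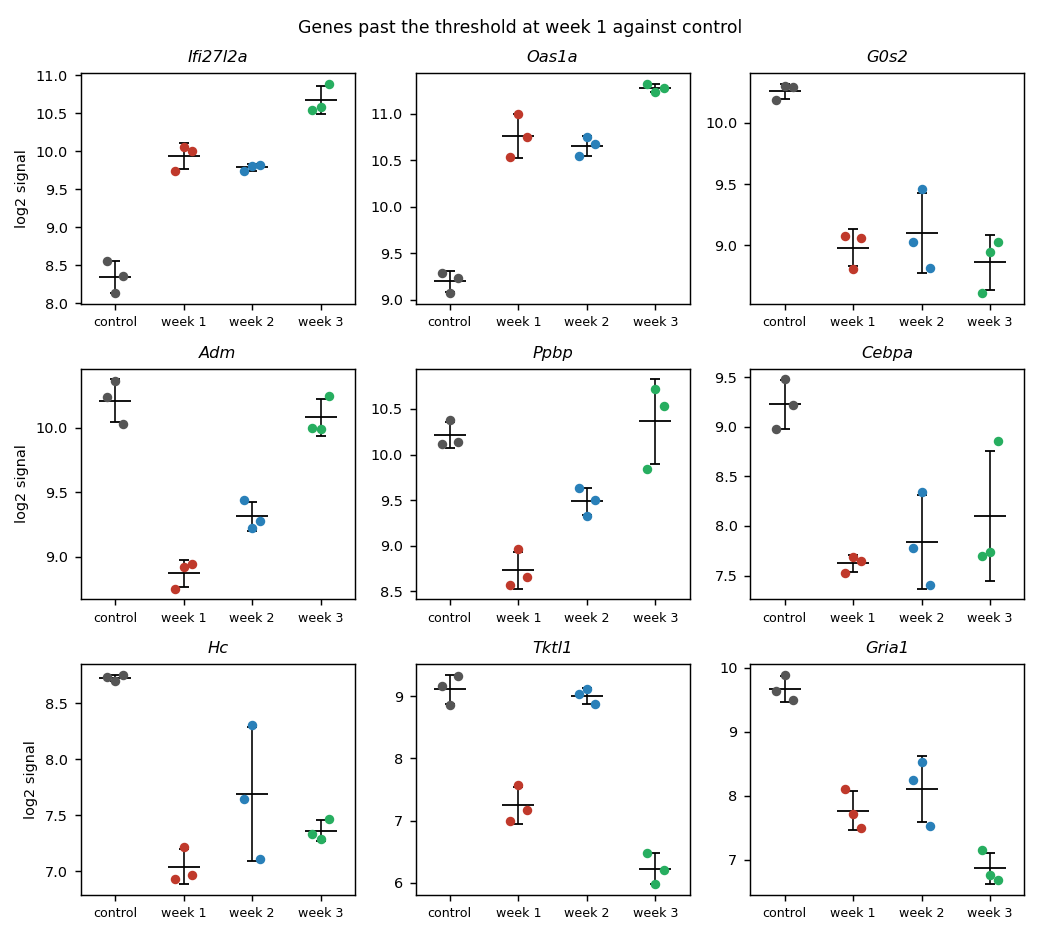
Log2 signal of the 9 genes that rose or fell at week 1, in each of the 12 arrays (points) with the mean and SD of each group (bars), n = 3 arrays per group. In all 9 panels the control and week 1 arrays do not overlap. The week 3 means of Adm and Ppbp differ from control by -0.13 and 0.15, while Tktl1 is within the control range at week 2 and lies between 5.98 and 6.48 at week 3.

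Ppbp, the platelet chemokine gene CXCL7, had signals of 10.12, 10.38 and 10.14 in control and 8.57, 8.96 and 8.66 at week 1. It fell 2.80-fold (log2FC of -1.48, SE 0.15, adjusted p = 0.0394). Of 14 platelet and megakaryocyte genes, Ppbp fell and 13 did not pass, with a median log2FC of -0.70. With 4 groups in one fit, 5 passed as lower and 0 as higher, where 0.748% of all genes passed as lower. At an unadjusted p below 0.05, 8 were lower and 0 higher, where 5.24% of all genes were lower. Pf4, the neighbour of Ppbp on GRCm38.p6 (RefSeq) and a chemokine of platelet granules, had 10.05, 10.40 and 9.99 in control and 8.32, 8.85 and 8.54 at week 1 (log2FC of -1.58, adjusted p = 0.0529). Itga2b, which encodes the platelet integrin CD41, had 9.23, 9.66 and 9.43 against 8.43, 8.57 and 8.34 (log2FC of -1.0, adjusted p = 0.0642). Tubb1, the tubulin of platelets, had 9.74, 10.47 and 9.71 against 8.48, 7.69 and 8.15 (log2FC of -1.87, adjusted p = 0.0604). Clec1b, the receptor CLEC-2, had a log2FC of -0.81 (adjusted p = 0.0769). Other platelet genes stayed near 0, with Gp1bb at 0.08 and Rab27b at -0.01. The mean signal over the list was 8.95, 9.19 and 9.12 in control and 8.26, 8.47 and 8.35 at week 1. The sort did not gate on a platelet antigen other than CD31, which platelets also carry. In sorted bulk RNA, fewer cells or fragments of a type and less RNA per cell cannot be told apart.

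Transcripts of cells that the sort was meant to leave out gave signal in control and had lower means at week 1. Pdgfrb, which encodes CD140b, had signals of 10.47, 10.19 and 10.13 in control and 8.19, 8.69 and 8.90 at week 1 (log2FC of -1.67, adjusted p = 0.0529). Pdgfra, which encodes CD140a, had 11.93, 11.99 and 11.82 against 10.49, 9.99 and 10.78 (log2FC of -1.50, adjusted p = 0.0579). Epcam, below the array median of 8.13 throughout, had 7.49, 7.48 and 7.43 against 7.15, 7.15 and 7.23 (log2FC of -0.29, adjusted p = 0.473). The arrays of these 3 genes did not overlap, whereas those of Ptprc (CD45, log2FC of -0.66) and Itgam (CD11b, -0.35) did.

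Over all genes, 0.748% passed as lower with 4 groups in one fit and 5.24% were lower at an unadjusted p below 0.05. Of 13 fibroblast markers, 0 passed in the fit of control and week 1 and 4 passed as lower with 4 groups in one fit. At an unadjusted p below 0.05, 11 of the 13 were lower. Their median was -0.64, and their mean signal ranged from 11.11 to 11.23 in control and from 10.46 to 10.58 at week 1. Of 12 mural cell markers, 0 passed, 4 did so with 4 groups, and 9 were lower at an unadjusted p below 0.05. Their median was -0.66, and their mean signal went from 9.54 to 9.71 in control and from 8.71 to 8.88 at week 1. Acta2, the actin of smooth muscle, had a log2FC of -1.21 (adjusted p = 0.0529), and Tcf21, a fibroblast transcription factor, one of -1.16 (adjusted p = 0.0557). The mean signal of each list was lower in all 3 week 1 arrays than in all 3 control arrays.

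Of the 42 gene lists, those of alveolar type 2 and airway cells had the lowest medians. Of 9 alveolar type 2 markers, 0 passed and 7 were lower at an unadjusted p below 0.05, beside 5.24% of all genes. The median of these markers was -1.11. Their mean signal was 11.17, 11.12 and 11.00 in control and 9.60, 10.09 and 10.42 at week 1, with replicate 3 nearest to control. Slc34a2, a phosphate transporter of type 2 cells, had 11.09, 10.83 and 10.97 against 8.26, 8.89 and 9.88 (log2FC of -1.96, adjusted p = 0.102), and Sftpb, a surfactant protein gene, had a log2FC of -1.52 (adjusted p = 0.0654). Of 8 alveolar type 1 markers 4 were lower at an unadjusted p below 0.05 (median -0.51), as were 8 of 12 airway markers (median -1.08). Both counts stand beside the same 5.24% of all genes, and 0 of either list passed. With 4 groups in one fit, 1 airway marker passed as lower, beside 0.748% of all genes. Cyp2f2, a cytochrome of club cells, had 9.03, 10.99 and 9.97 in control and 7.81, 7.66 and 7.42 at week 1. Its log2FC of -2.37 was the largest among genes with an unadjusted p below 0.01 and no overlap (adjusted p = 0.099). The club cell gene Scgb1a1 had a log2FC of -2.19 (adjusted p = 0.0905), Scgb3a2 one of -2.29 (adjusted p = 0.307) and Hp, which encodes haptoglobin, one of -2.04 (adjusted p = 0.0646). Chia1, a chitinase of the airways and lung, had a log2FC of -1.87 (adjusted p = 0.116), and AI504432, a transcript known by its clone name, one of -1.92 (adjusted p = 0.0933).

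Leukocyte markers had smaller differences. Of 10 pan-leukocyte markers, 0 passed, 4 were lower at an unadjusted p below 0.05 and the median was -0.40, and 1 passed with 4 groups in one fit, Coro1a (log2FC of -0.77, adjusted p = 0.128 in the fit of control and week 1). Of 15 macrophage markers, 0 passed, 6 were lower at an unadjusted p below 0.05 and the median was -0.33 (-0.18 without control replicate 1). With 4 groups in one fit 1 passed as lower, Cd68, at -0.89 (adjusted p = 0.147 in the fit of control and week 1). Of 7 monocyte markers, 0 passed and 2 were lower at an unadjusted p below 0.05 (median -0.13). Over all genes, 5.24% were lower at that p and 0.748% passed as lower with 4 groups in one fit. The mean signal of the macrophage list lay between 8.63 and 8.87 in control and between 8.42 and 8.46 at week 1. Neutrophil and lymphocyte lists had medians of 0.05 each, with 0 of 11 and 0 of 10 genes past an unadjusted p of 0.05, and their mean signals in control lay between 7.22 and 7.62 and between 6.96 and 7.03. Erythroid and mast cell lists had medians of 0.08 and 0.15. The mesothelial median of -0.15 was -0.73 without control replicate 3 and 0.08 without week 1 replicate 1. The part of these cells in the genes that fell was not tested.

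**Figure D3:**
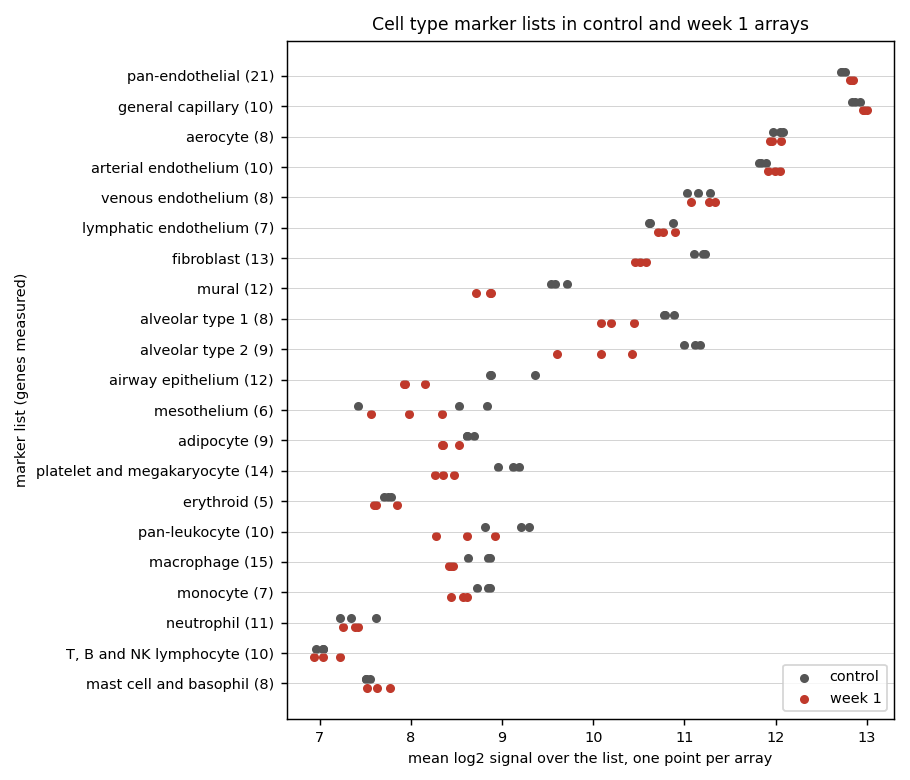
Mean log2 signal over each cell type marker list (number of genes measured in parentheses), with 1 point per array for control and week 1. The week 1 arrays lie below the control arrays for the fibroblast, mural, alveolar, airway, platelet, macrophage, monocyte and adipocyte lists, and above them for the pan-endothelial (12.82 to 12.85 against 12.72 to 12.76), general capillary and arterial lists.

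Endothelial markers differed little between control and week 1. Pecam1, which encodes CD31, had 13.40, 13.46 and 13.50 in control and 13.48, 13.53 and 13.47 at week 1 (log2FC of 0.04, SE 0.11, 95% interval from -0.22 to 0.30). Of 21 pan-endothelial markers, 0 rose and 0 fell in limma, 1 was higher at an unadjusted p below 0.05 (Tek, the angiopoietin receptor, log2FC of 0.49, adjusted p = 0.462) and the median was 0.08. General capillary, aerocyte, arterial, venous and lymphatic lists had medians of 0.06, -0.05, 0.18, 0.11 and 0.13, with 0 genes past the threshold and, at an unadjusted p below 0.05, 1 arterial gene higher, 1 arterial gene lower and 1 venous gene lower. The largest change in these 5 lists was Ackr1, a chemokine receptor of venules, at 0.88 (adjusted p = 0.547). At an unadjusted p below 0.05, 3.73% of all genes were higher and 5.24% lower.

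Among genes of endothelial growth and matrix, 1 passed at week 1. Of 38 mitosis genes, 0 passed and 2 were higher at an unadjusted p below 0.05, with a median of 0.21 that was 0.05 without week 1 replicate 2 and 0.39 without control replicate 1. Of 32 DNA replication genes 0 passed either threshold, and their median of 0.16 was 0 without week 1 replicate 2. VEGF ligands and receptors had a median of 0.04, with 0 of 10 past the threshold, 1 higher and 1 lower at an unadjusted p below 0.05, and the lymphatic growth factor gene Vegfd at -0.97 (adjusted p = 0.129). Of 24 genes of tip cells and angiogenesis, Adm fell and 23 did not pass (median 0.09), while at an unadjusted p below 0.05 there were 3 higher and 3 lower, against 3.73% and 5.24% of all genes. In 8 of the 24 every week 1 array was above every control array, and in 3 every week 1 array was below. These held for 9.21% and 6.93% of all genes. Of 23 basement membrane and matrix genes, 0 passed, 1 was higher and 6 lower at an unadjusted p below 0.05, and Col15a1, a collagen of vascular basement membranes, had a log2FC of 0.65 (adjusted p = 0.103) and passed with 4 groups in one fit. Of 16 genes of the TGF-beta response, 0 passed, 1 was lower at an unadjusted p below 0.05, and Ltbp2, a matrix protein of elastic fibres, had a log2FC of -1.45 (adjusted p = 0.0529). The medians of the last 2 lists were 0.00 and 0.03.

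The 4 secreted factors on which the study centres, chosen by it on these arrays, did not pass at week 1. Inhbb, a subunit of activin B, had signals of 9.81, 10.03 and 9.47 in control and 10.64, 10.75 and 10.03 at week 1 (log2FC of 0.70, SE 0.23, adjusted p = 0.381). Scgb3a1, a secretoglobin, had a log2FC of 0.51, Lama1, a laminin chain, one of 0.29 and Tnfrsf11b, which encodes osteoprotegerin, one of -0.08. The arrays of control and week 1 overlapped in all 4 genes.

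Of 15 genes of the circadian clock 0 passed. At an unadjusted p below 0.05, 2 were higher and 2 lower, where 3.73% and 5.24% of all genes were. Nr1d1, the repressor REV-ERB alpha, had signals of 9.34, 9.78 and 10.46 in control and 11.90, 11.73 and 11.03 at week 1, and its log2FC of 1.69 was the largest above control among genes with an unadjusted p below 0.01 and no overlap (SE 0.32, adjusted p = 0.108). Its paralog Nr1d2 had 9.55, 9.91 and 10.05 against 10.84, 11.11 and 10.82 (log2FC of 1.09, adjusted p = 0.0655). Cry1, a repressor of CLOCK and BMAL1, had 9.74, 9.69 and 9.05 against 8.24, 7.92 and 8.33 (log2FC of -1.33, adjusted p = 0.0718). Npas2, a partner of BMAL1, had a log2FC of -0.88 (adjusted p = 0.129). In these 4 genes the groups did not overlap. Nr1d2 and Cry1 passed with 4 groups in one fit. Arntl, Clock and Per2 had log2FC values of -0.22, -0.27 and -0.15. The hour at which lungs were collected is not given in the sources used here.

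**Figure D4:**
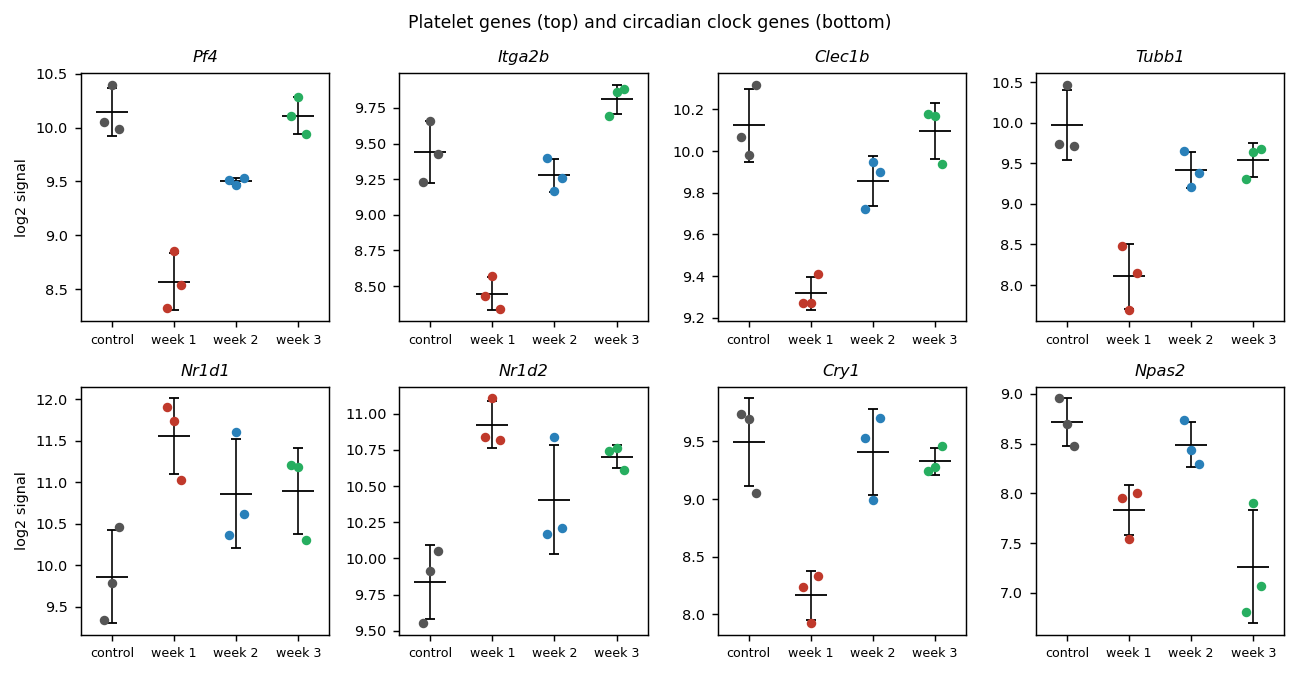
Log2 signal of 4 platelet genes (top) and 4 circadian clock genes (bottom) in each of the 12 arrays (points), with the mean and SD of each group (bars), n = 3 arrays per group. In all 8 genes the week 1 arrays lie outside the control range, and in Pf4, Itga2b, Tubb1, Clec1b and Cry1 every array of weeks 2 and 3 lies above every week 1 array.

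Week 1 was then set directly against the later stages. Between week 2 and week 1, 0 genes differed in limma, while 1192 did at an unadjusted p below 0.05, 1 with 4 groups in one fit and 5 when the variance was trended and robust. Between week 3 and week 1, 153 genes differed (0.841% of all genes), with 118 higher and 35 lower at week 3. Of the 9 genes of week 1, Adm and Ppbp were higher at week 3 than at week 1, by 1.21 and 1.63 on the log2 scale (adjusted p = 0.0167 and 0.0376). The other 7 did not pass, with differences from -1.02 for Tktl1 to 0.74 for Ifi27l2a. All 9 were picked for their week 1 values, which also enter these differences, so the adjusted p-values depend in part on that choice. Tktl1 had signals of 9.04, 9.12 and 8.87 at week 2 and 6.48, 5.98 and 6.21 at week 3, and its difference between weeks 2 and 1 of 1.77 had an adjusted p of 0.183.

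The interferon-stimulated genes, whose controls are the same arrays in each comparison, had medians of 0.70, 0.72 and 1.09 against control at weeks 1, 2 and 3. Of the 31, 5 were higher at week 3 than at week 1 and 0 lower, where 0.841% of all genes differed in either direction. The 5 were Mx1, Irf7, Ifit2, Zbp1 and Cxcl10, higher by 1.42, 1.05, 1.17, 1.24 and 2.06. Leukocyte markers were higher along with them, since the median of week 3 minus week 1 was 0.64 over the pan-leukocyte list and 0.42 over the macrophage list, beside 0.38 over the interferon list. Their part in this difference was not tested. The platelet list had medians of -0.70, -0.14 and -0.03. Of its 14 genes, 6 were higher at week 3 than at week 1 and 0 lower, beside the same 0.841% of all genes. Pf4 had signals of 9.51, 9.47 and 9.53 at week 2 and 10.11, 10.28 and 9.94 at week 3, above all week 1 arrays. Fibroblast, mural and alveolar type 2 lists had medians of -0.81, -0.43 and -0.91 at week 3, and 1 gene of these lists differed between weeks 3 and 1, Col1a1, which was higher at week 3 by 1.17 (adjusted p = 0.0374). The mitosis list had medians of 0.21, -0.02 and 1.63 against control at weeks 1, 2 and 3. Of its 38 genes, 9 were higher at week 3 than at week 1, again beside 0.841% of all genes. Inhbb, Lama1, Scgb3a1 and Tnfrsf11b were all higher at week 3 than at week 1, by 1.46, 1.5, 2.15 and 1.44. The study picked these genes in part for their rise at week 3 on these arrays. Their higher values at week 3 were thus fixed in part by that choice.

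Of the 16 probe sets that passed at week 1, 4 have no single gene symbol, all lower, and 3 belong to genes read from another probe set, the second of Adm and 1 each of Mlph, a melanosome adaptor gene, and Prkar2b, a regulatory subunit of protein kinase A. Replicate arrays correlated with r between 0.981 and 0.982 in control and between 0.973 and 0.982 at week 1, over all probe sets. Week 1 replicate 3 correlated with the control arrays at 0.978 to 0.980 and replicate 2 at 0.964 to 0.971. The 3′ minus 5′ difference of the Gapdh control probe sets was 0.52 ± 0.16 (SD, n = 3) in healthy lungs and 0.47 ± 0.06 (SD, n = 3) at week 1 (two-sided exact permutation p = 0.8, where the smallest possible is 0.1). That of beta-actin was 0.12 ± 0.08 (SD, n = 3) and 0.11 ± 0.03 (SD, n = 3), with an exact permutation p of 0.9. Of 20 transcripts that tissue dissociation induces, 0 passed and 6 were lower at an unadjusted p below 0.05 (median -0.15), Hspa1b, a heat-shock gene, among them at -0.90 (adjusted p = 0.228). Of 12 genes induced by glucocorticoids 0 passed and 1 was lower at an unadjusted p below 0.05 (median -0.12). The share of all genes lower at that p was 5.24%. The part of these transcripts in the other results was not tested.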

How the data were processed

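Sorted lung ECs were profiled on Affymetrix GeneChip mouse genome arrays. The deposited log2 values are robust multiarray averages that the authors made in Chipster, with 1 signal per probe set and array (range 5.27 to 14.1), and nothing was changed in them. Of 45101 probe sets, 64 array controls were set aside, and 34945 of the 45037 others carry 1 gene symbol, 932 several and 9160 none. Each gene was represented by the single-symbol probe set whose mean across 12 arrays was highest (18193 genes, 9010 with more than 1 probe set). Summarized values can compress fold changes and hold signal from related transcripts, and levels of different probe sets are not comparable. Their precision is limited by the 3 arrays per group.

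Following the methods of the study, pairs of groups were fitted with the linear model and empirical Bayes statistics of limma 3.58.1 (R 4.3.3), with Benjamini-Hochberg correction over all 45037 probe sets and a threshold of 0.05. The test was tried on simulated data. Python 3.11.15, pandas 2.3.3, scipy 1.17.1 and matplotlib 3.10.9 did the rest. The comparison and its 42 gene lists were chosen with earlier results of these data known. Lists are described by counts and medians and were not tested as sets. Some listed genes have no single-symbol probe set and are not analysed here. The genes named are all past the threshold, the 10 largest differences in each direction among genes with an unadjusted p below 0.01 and no overlap, in each list the 2 to 4 members that differed most, with a few others given for their roles, the genes of the sort and the 4 secreted factors.

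The alternatives were a fit of all groups, a block for the replicate number, single arrays left out, values quantile-normalized again or median-centred, probe sets above the median, no x_at or s_at probe sets, the mean of probe sets per gene, a trended and robust variance, array weights and thresholds of 0.1 and 0.25.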

Additional observations from a re-analysis of the deposited data

Results flagged for a closer look

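Of 107 genes looked at, 19 differed between week 3 and week 1 in the direct limma comparison of those groups. Over all genes the share that differed was 0.841%. The 107 were the genes past the threshold, the largest changes, the genes of the sort, the secreted factors and the interferon, platelet, clock, fibroblast and mural lists, and were chosen with earlier results of these data known. Many were picked for their week 1 values, which also enter this difference. The study picked the secreted factors in part for their rise at week 3 on these arrays. The count of 19 is therefore fixed in part by these choices. All 19 were higher at week 3. Among interferon-stimulated genes the log2 difference was 1.42 for Mx1, 1.05 for Irf7, 1.17 for Ifit2, 1.24 for Zbp1 and 2.06 for Cxcl10. Among platelet genes it was 1.63 for Ppbp, 1.54 for Pf4, 1.37 for Itga2b, 1.43 for Tubb1, 1.42 for Itgb3 and 0.78 for Clec1b. It was 1.21 for Adm, 1.53 for Hp, 1.16 for Cry1 and 1.17 for Col1a1. Among the secreted factors it was 1.46 for Inhbb, 1.5 for Lama1, 2.15 for Scgb3a1 and 1.44 for Tnfrsf11b. The adjusted p of the 19 lay between 0.00922 for Itga2b and 0.0493 for Clec1b.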

How the results depend on the processing

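The counts at week 1 against control of 2 genes risen and 7 fallen were unchanged by a further quantile normalization or median centring, and without x_at and s_at probe sets they were 2 and 6. They were 33 and 136 with all groups in one fit, 19 and 119 over probe sets above the median, 23 and 165 with a trended and robust variance, 7 and 50 with array weights, and 33 and 148 with the mean of probe sets per gene. At adjusted p below 0.1 they were 23 and 147, and below 0.25 they were 83 and 384. With an array left out, 0 genes rose and from 0 to 6 fell, and fewer arrays were then fitted. With the replicate number as a block (replicate block), 0 rose and 0 fell. The labels do not say whether arrays of the same number belong together. Deviations of same-numbered arrays from their group means correlated at -0.037, -0.082 and -0.104. Of 3 week 1 arrays, 0 correlated best with their own number. Pairing by number did not show in these values, and whether arrays shared a day or batch was not tested. All 9 genes passed under all groups in one fit, the filter, the trended variance, array weights and both normalizations, and none reversed its direction in any alternative. Between week 2 and week 1, 1 gene differed in the fit of all groups, 5 with the trended variance and 0 with the replicate block. Between week 3 and week 1, the 153 genes became 530 with all groups in one fit, 435 with a trended and robust variance, 222 over probe sets above the median, 3 with the replicate block, and from 0 to 52 with an array left out (0 without week 3 replicate 3, 14 without week 1 replicate 1). List medians moved by more than the spread of the arrays in 49 of 378 recomputations. The cause of these differences was not tested. With 3 arrays per group, a gene that missed the threshold is not shown to be unchanged.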
